A study of Mus musculus with 33 samples.

Results

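The genes of the proteasome were followed across 33 single mouse blastocysts. They were taken by name: every gene on the array whose symbol starts with Psma, Psmb, Psmc, Psmd, Psme, Psmf or Psmg and a digit. The rule found 44 of the 27670 genes named on the array. One of them, Psmc3ip, encodes a partner protein used in meiotic recombination and no part of the proteasome, so 43 genes remained. Of these, 42 passed the filter on dim probes, as did 15860 genes in all. The gene that did not pass was Psmb8.

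Clones made by nuclear transfer were set against blastocysts of their sex from in vitro fertilisation (IVF), and clones of different donor cells against each other. All embryos were of the strain (C57BL/6NxDBA/2)F1. The donors were adult Purkinje neurons of the cerebellum (4 male and 4 female clones), adult pyramidal neurons of hippocampal area CA1 (4 male and 4 female clones), neonatal Sertoli cells of the testis (4 male clones) and adult cumulus cells, which surround the oocyte (3 female clones). There were 7 male and 3 female IVF blastocysts. Every clone had been given the histone deacetylase inhibitor trichostatin A at 50 nM during 1 h of activation, 5 h with cytochalasin B and 2 h afterwards. Clones and IVF embryos were cultured for 96 h. The labels give no trichostatin A for the IVF embryos, so nuclear transfer and trichostatin A cannot be told apart in any comparison of clones with IVF. Numbers of donor animals and of sessions are not given in the labels, and the p-values reflect no more than the spread among these single embryos, which may be technical.

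The proteasome is the protease that degrades proteins tagged with ubiquitin. Its core particle is a barrel of alpha and beta rings, in which Psmb5, Psmb6 and Psmb7 carry the cutting sites. A regulatory cap of ATPases and other subunits recognises, unfolds and feeds in the substrate, and in cells exposed to interferon Psmb8, Psmb9 and Psmb10 replace the constitutive cutting subunits to form the immunoproteasome, which makes peptides for presentation on MHC class I.

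The promoters of the genes that the results turn on are shown because the immune subunits and the interferon-induced activator genes Psme1 and Psme2 are textbook targets of interferon signalling, whereas constitutive subunit genes are known targets of Nfe2l1 through antioxidant response elements. The sequences come from RefSeq on build GRCm38.p6 and run from 250 bases before to 50 bases after the start of each gene, and 36 of the 43 genes matched an entry. In the first 4, capitals mark an interferon response element (GAAA, any 2 bases and GAAA again) or a gamma-activated sequence (TTCNNNGAA). In Psmb6 they mark the antioxidant response element (TGACNNNGC). Both strands were searched. The windows are chr17:34187281-34187580 on the minus strand, chr8:105938343-105938642 on the minus strand, chr14:55578244-55578543 on the plus strand, chr14:55590972-55591271 on the minus strand (1 of 2 overlapping entries) and chr11:70525107-70525406 on the plus strand.
Psmb9: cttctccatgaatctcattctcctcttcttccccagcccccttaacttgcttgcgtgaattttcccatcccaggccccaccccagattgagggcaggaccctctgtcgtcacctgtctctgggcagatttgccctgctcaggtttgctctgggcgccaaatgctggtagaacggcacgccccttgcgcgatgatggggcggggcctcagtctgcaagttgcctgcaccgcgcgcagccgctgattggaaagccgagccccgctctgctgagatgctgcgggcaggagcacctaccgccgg
Psmb10: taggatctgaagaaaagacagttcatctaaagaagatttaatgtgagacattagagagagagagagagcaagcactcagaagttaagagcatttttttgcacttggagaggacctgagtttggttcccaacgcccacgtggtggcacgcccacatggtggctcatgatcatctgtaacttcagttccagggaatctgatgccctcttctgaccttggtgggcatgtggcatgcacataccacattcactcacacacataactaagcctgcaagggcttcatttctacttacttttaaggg
Psme1: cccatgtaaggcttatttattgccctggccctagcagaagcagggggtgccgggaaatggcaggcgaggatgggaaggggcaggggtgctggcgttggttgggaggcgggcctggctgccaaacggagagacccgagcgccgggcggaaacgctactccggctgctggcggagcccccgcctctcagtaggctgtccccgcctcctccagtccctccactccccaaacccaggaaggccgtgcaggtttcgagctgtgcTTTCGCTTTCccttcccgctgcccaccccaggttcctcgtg
Psme2: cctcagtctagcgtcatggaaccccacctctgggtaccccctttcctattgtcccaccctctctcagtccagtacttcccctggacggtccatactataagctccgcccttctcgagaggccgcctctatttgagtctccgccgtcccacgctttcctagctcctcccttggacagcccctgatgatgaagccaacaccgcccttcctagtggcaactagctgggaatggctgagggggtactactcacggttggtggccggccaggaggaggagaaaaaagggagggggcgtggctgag
Psmb6: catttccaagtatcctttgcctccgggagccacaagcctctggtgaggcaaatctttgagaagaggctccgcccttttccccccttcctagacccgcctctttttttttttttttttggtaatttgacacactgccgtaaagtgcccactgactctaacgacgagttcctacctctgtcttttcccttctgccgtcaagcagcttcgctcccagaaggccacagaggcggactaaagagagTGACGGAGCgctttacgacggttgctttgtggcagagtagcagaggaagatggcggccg

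Psme1 held an interferon response element just after its start, and Psmb6 an antioxidant response element just before its own. The windows of Psmb9, Psmb10 and Psme2 held neither of the interferon motifs in these letters. Over the 36 matched genes, 4 held the interferon response element (11.1%, against 3.99% of 27025 genes), 2 the gamma-activated sequence (5.56%, against 9.55%), 6 the antioxidant response element (16.7%, against 13.99%) and 13 the CCAAT box of NF-Y (CCAAT; 36.1%, against 41.1%). The 4 with the interferon response element were Psmb3, Psmd4, Psmd9 and Psme1, and only Psme1 among them is an interferon target named above. The 2 with the gamma-activated sequence were Psmb8 and Psmd2. The window of Psmb9 shared 275 bases with that of Tap1, the peptide transporter gene that lies head to head with it.

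Values below are given as log2 of the signal over its array's 75th percentile, with the brightest probe standing for a gene. A change is the difference of group means on that scale, and a gene was called at a limma p, adjusted over all 15860 genes, under 0.05. The share of probes well above background ran from 45.3% to 62.6%. The 75th percentile was between 229.9 and 661 in male Purkinje clones and between 354.7 and 840 in female Purkinje clones, against 917 to 1450 in all other groups. The 13 IVF and cumulus arrays formed a set of their own, read with another scanner model and software version than the other 20, and 15.65% to 23.3% of their signals were at or below 0, against 0% on the others. Each group of clones was hybridised on a single slide, shared with no other group. Donor type therefore cannot be told apart from slide in any comparison, nor, for the neuronal and Sertoli clones against IVF, from array set. Markers of trophectoderm (6 of 6) and inner cell mass (5 of 5) were well above background on every array. RNA came from single whole blastocysts and was amplified before labelling, so fewer cells of a type and less RNA per cell cannot be told apart.

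Most proteasome genes were abundant, and their median spread within groups was no larger than that of all genes. Of the 42 tested, 41 were well above background on all 33 arrays, the other being Psma8 (28 of 33). The median within-group SD of the 42 genes was 0.40 among male IVF blastocysts, against 0.47 for all genes. It lay between 0.17 and 0.33 in the other groups, against 0.29 to 0.40 for all genes. In Sertoli clones the medians were nearly equal (0.319 and 0.322). The 42 genes were not matched to others by brightness. Over the 6 comparisons of clones with IVF, 13 genes were never called, 18 were called higher at least once and lower never, and 11 lower at least once and higher never. No gene was called in both directions. The same counts over all genes are not given here, and the comparisons within a sex share their IVF arrays. These counts therefore show nothing particular to the proteasome. In single comparisons 5.29% (cumulus) to 30.9% (male CA1) of all genes were called. The 13 never called included Psmb5, the core's chymotrypsin-like subunit, and the cap subunits Psmd1 and Psmd2.

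**Figure D1:**
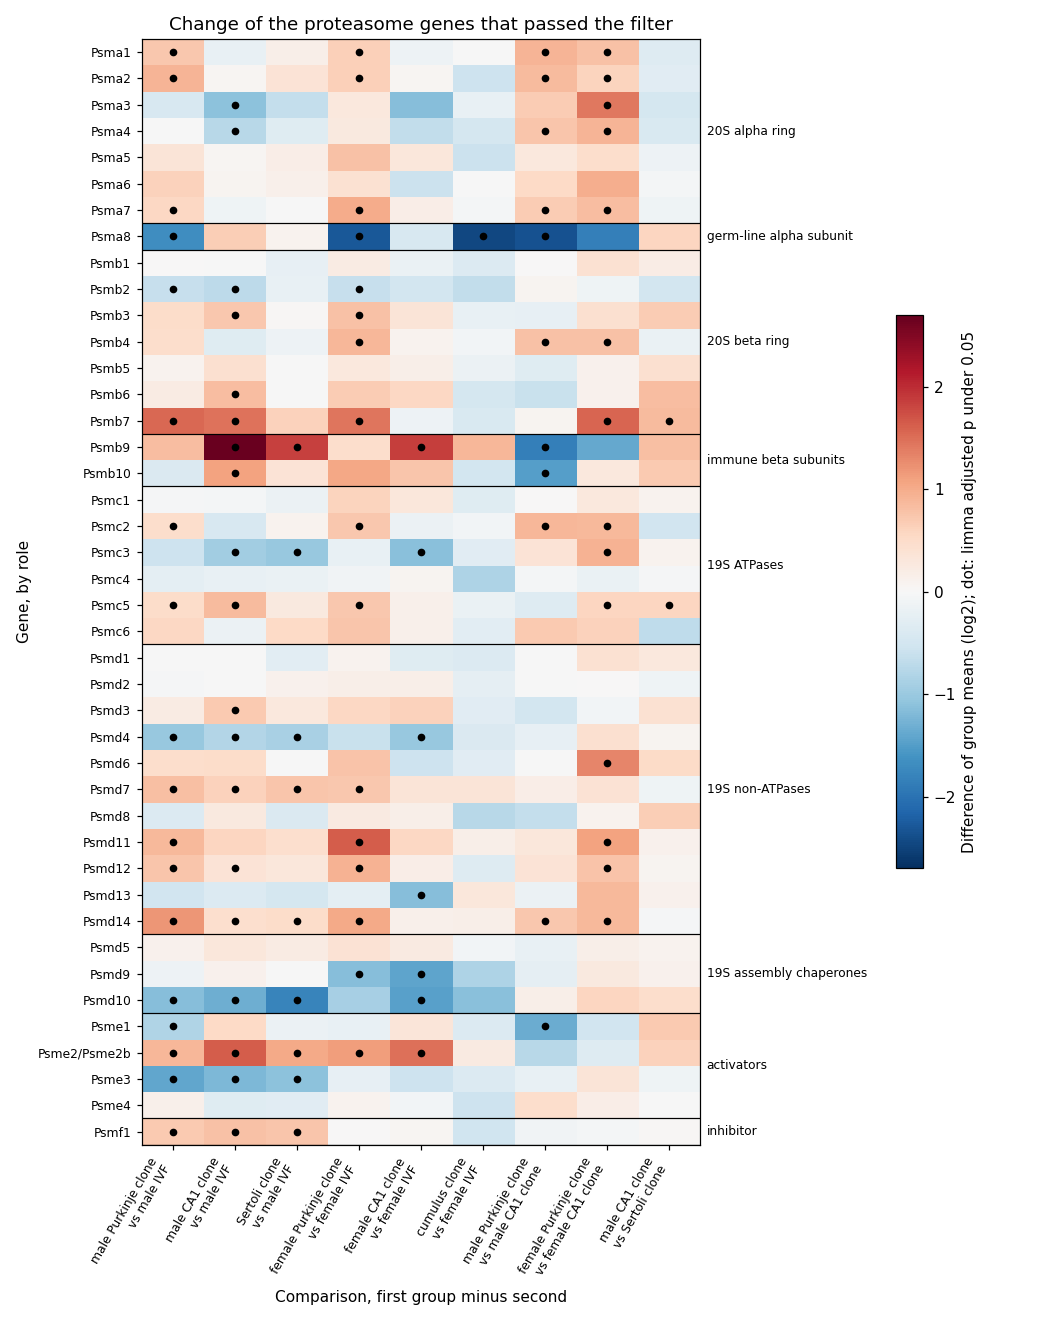
Change of the 42 proteasome genes (rows, by role) in 9 comparisons (columns), as the difference of group means in log2 units from blue (lower in the first group) to red (higher). Black dots mark limma adjusted p under 0.05; the deepest red is Psmb9 in male CA1 clones against IVF (2.68) and the deepest blue Psma8 in cumulus clones (-2.45).

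In male CA1 clones, 19 of the 42 genes (45.2%) were called against male IVF, 12 higher and 7 lower, where 30.9% of all genes were called (17.6% higher and 13.3% lower). The highest were Psmb9 (2.68) and Psme2 (1.64) and the lowest Psmd10 (-1.31) and Psme3 (-1.21). In male Purkinje clones 18 (42.9%) were called, 12 higher and 6 lower, against 28.6% of all genes (18.3% higher and 10.3% lower), led by Psmb7 (1.54) and Psmd14 (1.20) upwards and Psma8 (-1.68) and Psme3 (-1.41) downwards. In Sertoli clones 9 (21.4%) were called, 5 higher and 4 lower, against 25.7% of all genes (14.9% higher and 10.7% lower). Psmb9 (1.86) and Psme2 (1.01) were the highest there and Psmd10 (-1.79) and Psme3 (-1.1) the lowest. The median change of the 42 was 0.063 in male CA1 and 0.012 in Sertoli clones, and that of all genes 0.01 and 0.0036. In male Purkinje clones it was 0.18, against 0.069 for all genes, but -0.18, -0.17 and -0.21 under quantile normalization, array median scaling and normexp. Under those scalings the median of all genes was -0.010, -0.14 and 0.28. The 3 comparisons of male clones with IVF share the male IVF arrays.

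In female Purkinje clones 16 of the 42 (38.1%) were called against female IVF, 13 higher and 3 lower, where 19.7% of all genes were called (13.1% higher and 6.66% lower). Psmd11 (1.64), a cap subunit, and Psmb7 (1.44) rose most, and Psma8 (-2.28) and the cap chaperone Psmd9 (-1.15) fell most. In female CA1 clones 7 (16.7%) were called, 2 higher and 5 lower, against 13.3% of all genes (8.39% higher and 4.9% lower). They rose for Psmb9 (1.86) and Psme2 (1.49) and fell most for Psmd10 (-1.47) and Psmd9 (-1.42). In cumulus clones only Psma8 was called (-2.45 (adjusted p = 0.0478)), or 2.38%, against 5.29% of all genes (1.95% higher and 3.34% lower). The largest other differences there were -1.13 for Psmd10 and 0.89 for Psmb9, and neither passed the threshold.

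The cumulus comparison is the one of clones with IVF in which both groups come from the earlier array set. The differences of 36 of the 42 genes were below 0 there, with a median of -0.32 against -0.024 for all genes, and 14 of the 42 lay below every female IVF value, where 15.8% of all genes did. In female Purkinje clones 18 of the 42 lay above every female IVF value, where 17.2% of all genes did. The median change of the 42 there was 0.44, against 0.081 for all genes. Under array median scaling it was -0.17, against -0.33 for all genes. In female CA1 clones the median was 0.086 against 0.07. The female comparisons rest on 3 IVF arrays. Without female IVF replicate 1, 2 genes were called in female CA1 clones, without replicate 2, 3, and without female CA1 replicate 1, 4. The count in female Purkinje clones was 10 without Purkinje replicate 2, 9 without Purkinje replicate 3 and 10 without female IVF replicate 3. That in cumulus clones was 0 without cumulus replicate 1 or 2 or any single IVF replicate, and 3 without cumulus replicate 3.

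Psmb9, the immune subunit that takes the place of Psmb6, showed the largest rise of the 42 genes against IVF. Its log2 signal ran from -0.40 to 1.93 with a median of 1.13 in the 7 male IVF blastocysts and was 3.94, 4.18, 2.86 and 3.73 in the 4 male CA1 clones. It was 1.98, 3.16, 2.73 and 3.54 in Sertoli clones and 1.95, 1.72, 1.74 and 1.94 in male Purkinje clones. All male CA1 and Sertoli clones lay above all male IVF blastocysts, whereas the male Purkinje clones overlapped the IVF range. The change was 2.68 (SE 0.41, adjusted p = 1.56e-05) in male CA1 clones, or 6.4-fold, and 1.86 (SE 0.41, adjusted p = 0.00152) in Sertoli clones. It was 0.84 (adjusted p = 0.129) in male Purkinje clones, which missed the threshold.

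In females Psmb9 was 2.04, 1.59 and 1.72 in IVF blastocysts, 3.63, 4.39, 2.50 and 4.07 in CA1 clones, 2.26, 3.58, 1.60 and 1.59 in Purkinje clones and 2.19, 3.01 and 2.82 in cumulus clones. Every CA1 and every cumulus clone lay above the 3 IVF values, and the Purkinje clones overlapped them. CA1 clones were higher by 1.86 (SE 0.50, adjusted p = 0.014), a call lost without female IVF replicate 2 (1.77). Cumulus clones differed by 0.89 (adjusted p = 0.361) and Purkinje clones by 0.47 (adjusted p = 0.568). Male Purkinje clones were lower than male CA1 clones by -1.84 (SE 0.47, adjusted p = 0.00714) with no overlap, and female Purkinje clones differed from female CA1 clones by -1.39 (adjusted p = 0.0517). Under quantile normalization, scaling to the array median and normexp background correction the 3 rises against IVF stayed called, at 2.47 to 2.77 in male CA1, 1.71 to 1.90 in Sertoli and 1.62 to 1.79 in female CA1 clones. The fit of the female CA1 and IVF arrays alone did not call it.

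Psmb10, which takes the place of Psmb7, rose in 1 group. It ran from -1.04 to -0.11 with a median of -0.79 in male IVF blastocysts and was 0.013, 0.42, 0.28 and 0.87 in male CA1 clones, -1.07, -1.45, -0.57 and -1.23 in male Purkinje clones and -0.033, -1.32, -0.25 and 0.33 in Sertoli clones. Male CA1 clones lay above all IVF values and rose by 1.09 (SE 0.32, adjusted p = 0.00967), a call lost without male CA1 replicate 4 (0.93). Male Purkinje clones were lower than male CA1 clones by -1.48 (SE 0.36, adjusted p = 0.00497), also with no overlap. In females it was -2.01, -1.5 and -0.82 in IVF, -0.64, -0.27, -0.57 and -0.12 in Purkinje, 0.20, -1.37, -1.34 and -0.25 in CA1 and -1.46, -2.69 and -1.68 in cumulus blastocysts. All female Purkinje clones lay above the IVF values, but the difference of 1.04 (adjusted p = 0.0545) missed the threshold.

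Psmb8, the immune counterpart of Psmb5, gave no usable level. Each of its 2 probes lay on the floor of -3.45 on all 33 arrays and was well above background on 3 of them, so no change was computed. Psmb11, the thymic counterpart of the same subunit, which the files list under another name and the rule therefore did not take, also lay on the floor on every female array and every male IVF array, so no change can be read for it.

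**Figure D2:**
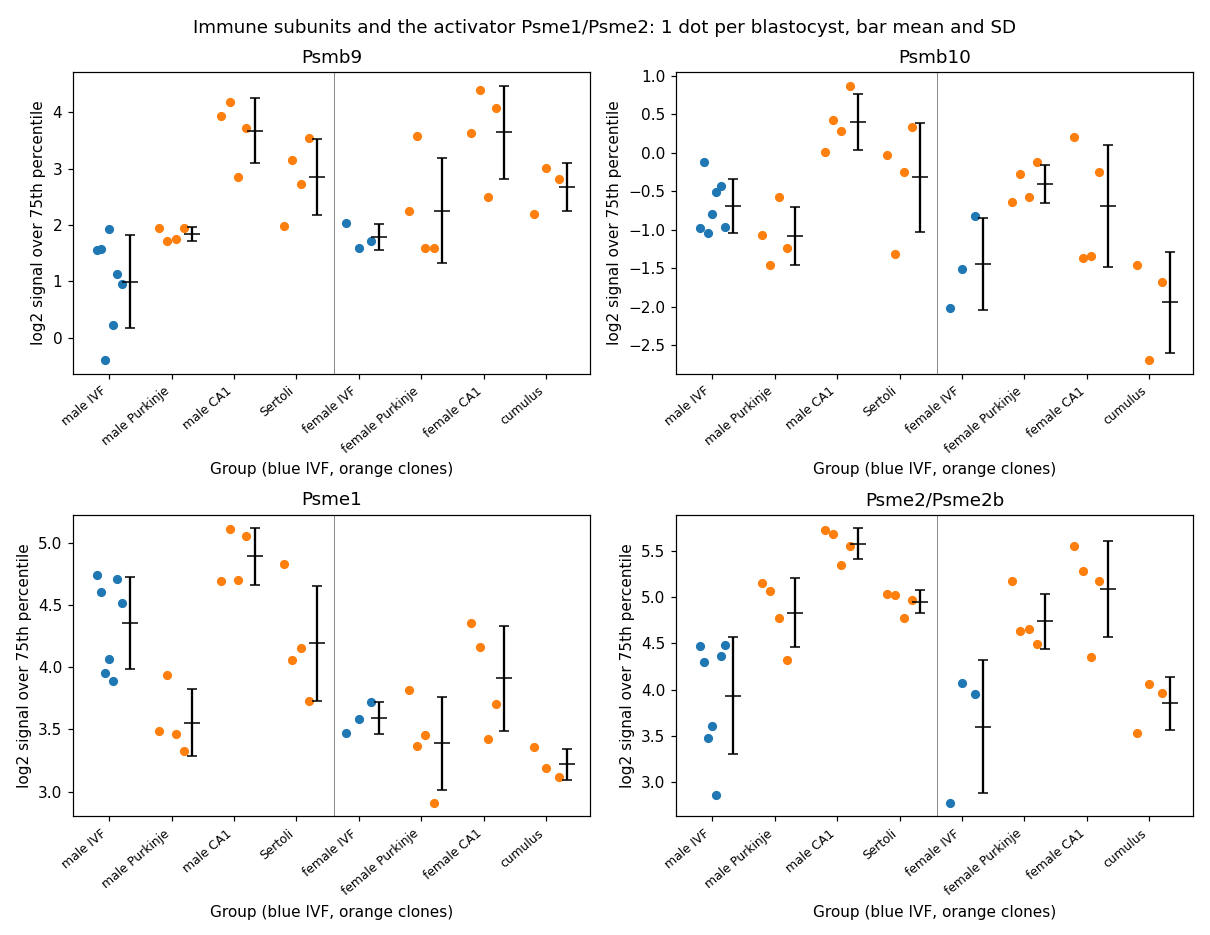
Log2 signal over the array's 75th percentile for Psmb9, Psmb10, Psme1 and Psme2/Psme2b in each blastocyst (1 dot each; blue IVF, orange clones), by group, with the mean and SD beside the dots. The male CA1 dots of Psmb9 and Psme2/Psme2b lie above all male IVF dots, and those of Psme1 in male Purkinje clones lie below all male CA1 dots.

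Psme1 and Psme2 encode the alpha and beta subunits of an interferon-induced ring that opens the core without ATP. The Psme2 probes are listed under Psme2b-ps in the files and carry accessions of both Psme2 and its near copy Psme2b, so the signal may hold both. Psme2 ran from 2.86 to 4.48 with a median of 4.30 in male IVF blastocysts and was 5.72, 5.68, 5.35 and 5.55 in male CA1, 5.04, 5.03, 4.78 and 4.96 in Sertoli and 5.15, 5.06, 4.78 and 4.33 in male Purkinje clones. Every CA1 and Sertoli clone lay above every IVF blastocyst, and 1 of 4 Purkinje clones lay within the IVF range. The changes were 1.64 (SE 0.28, adjusted p = 6.10e-05), 1.01 (SE 0.28, adjusted p = 0.00869) and 0.89 (SE 0.28, adjusted p = 0.0179). The CA1 rise stayed called under the 3 other scalings (1.43 to 1.71), the Sertoli rise was lost under quantile normalization (0.73), and the Purkinje rise under all 3 (0.40 to 0.55) and without Purkinje replicate 1 (0.78) or 2 (0.81).

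In females Psme2 was 2.78, 4.07 and 3.95 in IVF, 5.55, 5.28, 4.35 and 5.17 in CA1, 5.17, 4.63, 4.66 and 4.49 in Purkinje and 3.53, 4.06 and 3.97 in cumulus blastocysts. Both neuronal groups lay above the IVF values and the cumulus clones overlapped them. CA1 clones rose by 1.49 (SE 0.34, adjusted p = 0.00451) and Purkinje clones by 1.14 (SE 0.34, adjusted p = 0.0192). Both calls were lost without female IVF replicate 1 (1.07 and 0.73), the lowest of the 3, and the Purkinje call also under the 3 other scalings (0.53 to 0.74). The CA1 call was lost under normexp (1.32) and in the fit of the 2 groups alone. The other probe of the gene gave changes of 1.76 in male CA1, 1.06 in Sertoli, 0.83 in male Purkinje, 1.30 in female CA1 and 0.86 in female Purkinje clones.

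Psme1 did not follow Psme2. It ran from 3.89 to 4.75 with a median of 4.52 in male IVF blastocysts and was 3.49, 3.94, 3.46 and 3.33 in male Purkinje, 4.69, 5.11, 4.70 and 5.06 in male CA1 and 4.83, 4.06, 4.16 and 3.73 in Sertoli clones. Male Purkinje clones fell by -0.80 (SE 0.21, adjusted p = 0.00628) against IVF, with 1 clone inside the IVF range, and by -1.34 (SE 0.24, adjusted p = 0.000427) against CA1 clones with no overlap. Both calls held under the 3 other scalings. CA1 and Sertoli clones differed from IVF by 0.54 (adjusted p = 0.058) and -0.16 (adjusted p = 0.638). In females the values were 3.47, 3.59 and 3.72 in IVF, 3.82, 3.37, 3.46 and 2.91 in Purkinje, 4.36, 4.16, 3.43 and 3.70 in CA1 and 3.36, 3.19 and 3.11 in cumulus blastocysts, and no comparison passed the threshold.

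Differences between a pair of genes on the same array do not depend on a constant scale factor of the array. They were taken for 3 pairs, which were chosen after the values were seen and are therefore given as a description, with no test. The difference of Psme2 and Psme1 was higher than in male IVF by 1.69 in male Purkinje, 1.1 in male CA1 and 1.18 in Sertoli clones, with no overlap in any of them. Against female IVF it was higher by 1.34 in Purkinje and 1.17 in CA1 clones without overlap, and by 0.62 in cumulus clones with overlap. The difference of Psmb9 and Psmb6 was higher by 1.85 in male CA1, 1.87 in Sertoli and 0.63 in male Purkinje clones, with overlapping ranges. Against female IVF it was higher by 1.30 in CA1 and 1.37 in cumulus clones without overlap. In female Purkinje clones it differed by -0.21 with overlap. The difference of Psmb10 and Psmb7 was lower than in male IVF in male Purkinje clones (-1.93), with no overlap. In female Purkinje clones it differed from female IVF by -0.40, with overlap.

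Genes that serve the same route of antigen processing were set beside the immune subunits. The shares of all genes called are those given above for each comparison. Of 9 tested, 1 rose in male CA1, 3 in Sertoli, 2 in male Purkinje, 1 in female CA1 and 1 in female Purkinje clones, and 1 fell in female Purkinje clones. Tapbp, which holds MHC class I at the peptide transporter, rose by 1.96 (adjusted p = 1.29e-05) in male CA1, 1.33 (adjusted p = 0.00161) in Sertoli, 1.09 (adjusted p = 0.00715) in male Purkinje and 1.36 (adjusted p = 0.0131) in female CA1 clones. Tap1 lay at or near the floor of -3.45, with means of -3.30 in male CA1 clones and -3.39 in male IVF blastocysts and -2.27 and -3.09 in the same groups of females, and its difference from IVF of 0.82 in female CA1 clones missed the threshold (adjusted p = 0.0783). B2m, the light chain of MHC class I, rose in Sertoli clones (1.06 (adjusted p = 0.0274)), and the heavy chain gene H2-K1 rose there (0.96 (adjusted p = 0.0231)) and fell in female Purkinje clones (-1.06 (adjusted p = 0.0471)).

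Leukocytes express the immune subunits strongly, and their 6 marker genes summed to between 0.113 and 0.693 times the 75th percentile over all 33 arrays. The sum was 0.28 to 0.388 in male CA1 clones and 0.162 to 0.693 in male IVF blastocysts, and 0.247 to 0.412 in female CA1 clones against 0.151 to 0.313 in female IVF blastocysts. Ptprc, the common leukocyte antigen, was not well above background on any male CA1, female CA1, male IVF or female IVF array. In each of these groups 3 of the 6 leukocyte markers were well above background on every array. Markers of the donor cells were also read. Of 4 Purkinje neuron markers, on none of the arrays was Pvalb well above background, and Pcp2 was well above it on every array and called in none of the 9 comparisons. Of 4 CA1 neuron markers, Neurod6 reached that level on none of the arrays, and Nrgn on no CA1 clone array. Camk2a reached it on every male and female CA1 clone array, but not on every array of any other group. Wfs1, which encodes a protein of the endoplasmic reticulum, reached it on every array. Wfs1 was higher against IVF in male CA1 (1.84), male Purkinje (1.20), Sertoli (0.97), female CA1 (1.52) and female Purkinje clones (0.91), and higher in male CA1 than in Sertoli clones (0.87). The summed level of the CA1 list was 12.2 to 36.5 times the 75th percentile in male CA1 clones and 4.7 to 9.12 in male IVF blastocysts, and 13.85 to 20.5 in female CA1 clones against 4.52 to 6.68 in female IVF blastocysts. Clones of the other donors also lay above IVF of their sex. For them the sum was 14 to 18.0 in male Purkinje, 9.86 to 17.2 in Sertoli, 10.1 to 11.6 in female Purkinje and 8.21 to 14.5 in cumulus clones. A high sum of this list was therefore not particular to CA1 clones. The part of this list in the rises of the immune subunits was not tested.

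Psmb7, the trypsin-like subunit that Psmb10 replaces, rose in 3 of 6 clone groups. It ran from -0.13 to 0.77 with a median of 0.13 in male IVF blastocysts and was 1.61, 1.06, 2.40 and 2.32 in male Purkinje, 1.97, 2.04, 1.72 and 1.40 in male CA1 and 1.30, 0.48, 0.74 and 1.15 in Sertoli clones. All male Purkinje and CA1 clones lay above the IVF range. Their changes were 1.54 (SE 0.26, adjusted p = 7.40e-05) and 1.48 (SE 0.26, adjusted p = 6.88e-05), called under the 3 other scalings too, and Sertoli clones differed by 0.61 (adjusted p = 0.0774).

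In females Psmb7 was 0.98, 0.50 and 0.67 in IVF, 1.29, 2.54, 2.57 and 2.24 in Purkinje, 0.52, 0.58, 0.79 and 0.42 in CA1 and 0.28, -0.002 and 0.65 in cumulus blastocysts. Purkinje clones lay above both IVF and CA1 embryos, and CA1 clones overlapped the IVF values. The changes were 1.44 (SE 0.31, adjusted p = 0.0019) against IVF and 1.58 (SE 0.29, adjusted p = 0.000885) against CA1 clones. They came to 0.57 and 0.71, neither called, when the 3 female Purkinje arrays with a 75th percentile under 500 were left out, which leaves 1 clone. The change against IVF was also not called under array median scaling (0.83), normexp (0.94) or a fit of the 2 groups alone. The change in CA1 clones was -0.14 (adjusted p = 0.875). The male and female CA1 changes differed by 1.61 (SE 0.40, adjusted p = 0.0429), the only one of the 42 genes past the threshold, where 1.07% of all genes were. That call was lost when any of 13 of the 18 arrays was left out. For the Purkinje change no gene of the 42 differed between the sexes, where 0.0567% of all genes did. Male Psmb7 was also higher in CA1 than in Sertoli clones (0.86 (adjusted p = 0.0488)), a call lost in 7 of 8 fits that left out 1 array.

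Of the other cutting subunits, Psmb5 was called nowhere and Psmb6 in 1 comparison with IVF. Psmb5 ran from 4.68 to 5.96 with a median of 5.43 in male IVF blastocysts and was 5.79, 5.78, 5.39 and 5.34 in male Purkinje, 6.06, 6.04, 5.87 and 5.68 in male CA1 and 5.43, 5.30, 5.27 and 5.88 in Sertoli clones. It was 5.33, 5.37 and 5.05 in female IVF, 5.83, 5.45, 5.35 and 5.46 in female Purkinje, 5.14, 5.55, 5.69 and 5.25 in female CA1 and 5.18, 5.22 and 4.87 in cumulus blastocysts. Its change lay between -0.16 and 0.43 over the 6 comparisons with IVF. Psmb6 rose in male CA1 clones, at 6.04, 5.49, 5.69 and 5.76 against from 4.08 to 5.75 with a median of 4.98 in male IVF, with overlapping ranges (0.83 (SE 0.26, adjusted p = 0.0145)). That call was lost without male CA1 replicate 1 (0.73). Of the structural beta subunits, Psmb2 was lower in male Purkinje (-0.62), male CA1 (-0.70) and female Purkinje clones (-0.61), Psmb3 was higher in male CA1 (0.72) and female Purkinje clones (0.79), and Psmb4 in female Purkinje clones (0.89). Psmb1 was called nowhere. The calls of Psmb2 and Psmb3 in female Purkinje clones were each lost in 6 of 7 fits that left out 1 array.

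Psma8 is an alpha subunit found in the germ line in place of Psma7. It ran from -1.51 to 0.59 with a median of -0.49 in male IVF blastocysts and was -3.45, -1.03, -2.27 and -1.88 in male Purkinje clones, -0.24, 0.97, -0.093 and 0.17 in male CA1 clones and -0.29, -0.53, -0.17 and -0.49 in Sertoli clones. In females it was -0.069, -0.66 and -0.43 in IVF, -3.45, -3.20, -3.45 and -0.57 in Purkinje, 1.1, -2.18, -1.17 and -1.06 in CA1 and -3.45, -3.45 and -1.61 in cumulus blastocysts. Values of -3.45 are the floor, and the probe was well above background in 3 of 4 male Purkinje, 2 of 4 female Purkinje and 1 of 3 cumulus clones. The falls were -1.68 (adjusted p = 0.0258) in male Purkinje, -2.28 (adjusted p = 0.0196) in female Purkinje and -2.45 (adjusted p = 0.0478) in cumulus clones. Only the cumulus clones lay wholly below their IVF group. With normexp background correction the Purkinje falls were -0.57 and -1.01 and no longer called, and each of the 3 calls was lost on leaving out certain single arrays, 3 of 11, 4 of 7 and 5 of 6 respectively. Male Purkinje clones were lower than male CA1 clones by -2.36 (adjusted p = 0.0109), with no overlap.

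Psma1 to Psma7 form the alpha rings, the gate of the core. None was called in Sertoli, female CA1 or cumulus clones. In male CA1 clones 2 of 7 fell, Psma3 (-1.12) and Psma4 (-0.75), where 13.3% of all genes were called lower. Of all genes, 18.3% were called higher in male and 13.1% in female Purkinje clones. In both Purkinje groups Psma1, Psma2 and Psma7 rose, by 0.72, 0.92 and 0.56 in males and 0.65, 0.65 and 1.01 in females. Under quantile normalization the male changes were 0.23, 0.41 and 0.06 and the female ones 0.089, 0.048 and 0.36. The female calls of Psma1 and Psma2 were lost in 6 and 5 of 7 fits that left out 1 array, and those of Psma3 and Psma4 in male CA1 clones in 1 of 11 each.

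Psmd10, the cap chaperone also known as gankyrin, is the only X-linked gene of the 43. It ran from 0.076 to 1.18 with a median of 0.82 in male IVF blastocysts and was -0.75, -0.48, -0.49 and -0.69 in male CA1, -0.69, -1.19, -0.85 and -1.57 in Sertoli and -1.33, 0.0002, 0.13 and -0.58 in male Purkinje clones. All CA1 and Sertoli clones lay below all IVF blastocysts, and 1 of 4 Purkinje clones lay within the IVF range. The falls were -1.31 (SE 0.33, adjusted p = 0.00294), -1.79 (SE 0.33, adjusted p = 0.000219) and -1.16 (SE 0.33, adjusted p = 0.00889). They stayed called under the 3 other scalings, and the Purkinje call was lost without Purkinje replicate 1 (-0.86) and with a replicate block (-0.95).

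In females Psmd10 was 0.86, 0.50 and 0.36 in IVF, 0.044, -1.27, -0.90 and -1.46 in CA1, -1.05, -0.48, 0.11 and 0.16 in Purkinje and -0.57, -1.52 and 0.42 in cumulus blastocysts. CA1 and Purkinje clones lay below the IVF values and cumulus clones overlapped them. CA1 clones fell by -1.47 (SE 0.40, adjusted p = 0.0142), a call lost without female IVF replicate 1 (-1.33). Purkinje and cumulus clones differed by -0.89 (adjusted p = 0.116) and -1.13 (adjusted p = 0.116). Male and female changes did not differ past the threshold for CA1 (0.16, adjusted p = 0.942) or Purkinje clones (-0.27, adjusted p = 0.937). The other cap chaperone called, Psmd9, fell in both female neuronal groups (-1.15 and -1.42), and Psmd5 was called nowhere.

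**Figure D3:**
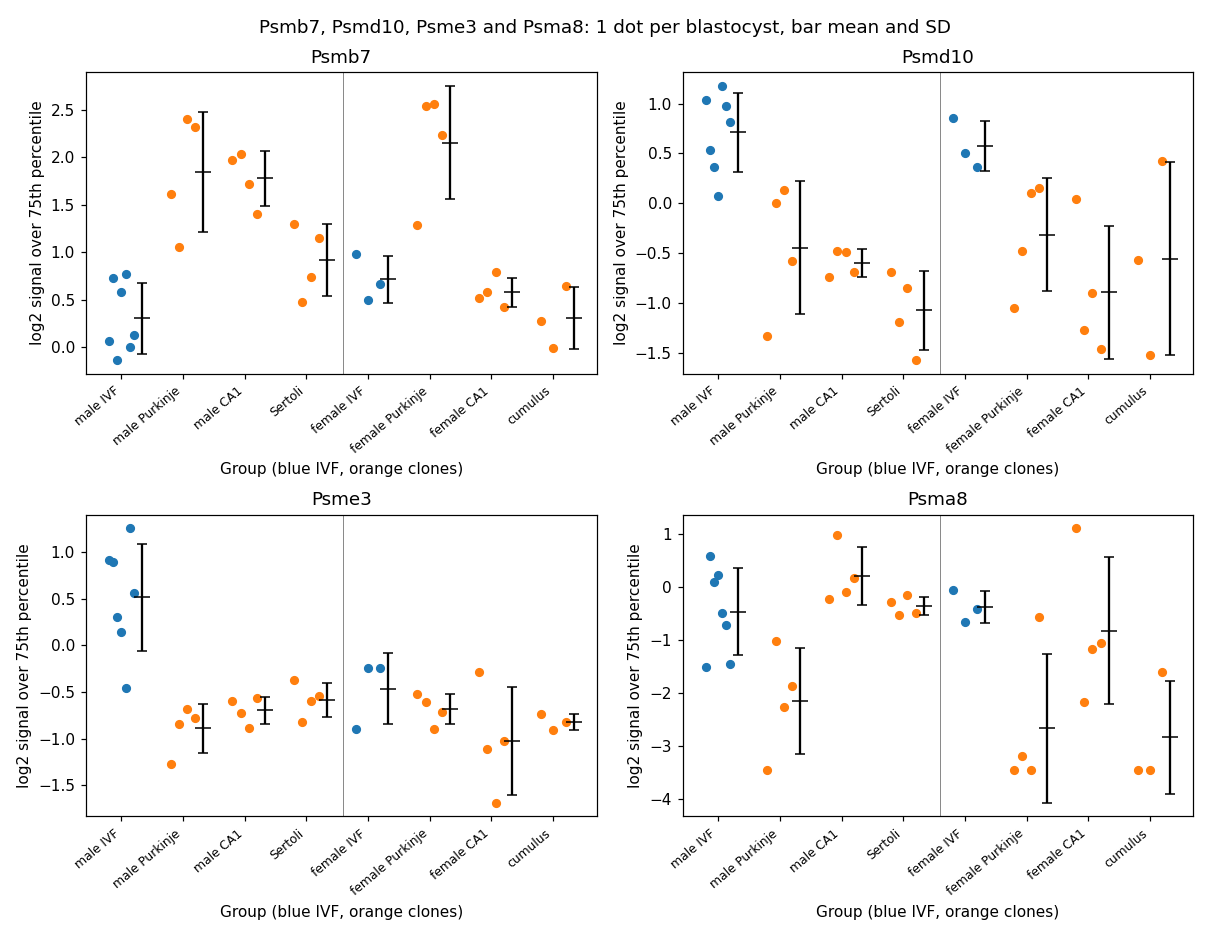
Log2 signal over the array's 75th percentile for Psmb7, Psmd10, Psme3 and Psma8 in each blastocyst (1 dot each; blue IVF, orange clones), by group, with the mean and SD beside the dots. Psmd10 of all male CA1 and Sertoli clones lies below all male IVF dots, Psmb7 of all Purkinje clones above the IVF dots of their sex, and Psma8 values of -3.45 are on the floor.

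Psme3 encodes the nuclear ring activator of the core. It ran from -0.45 to 1.25 with a median of 0.56 in male IVF blastocysts and was -1.27, -0.84, -0.68 and -0.77 in male Purkinje, -0.60, -0.73, -0.88 and -0.56 in male CA1 and -0.38, -0.82, -0.60 and -0.55 in Sertoli clones. Purkinje and CA1 clones lay below every male IVF value, and 1 Sertoli clone lay inside their range. The falls were -1.41 (SE 0.24, adjusted p = 0.000107), -1.21 (SE 0.24, adjusted p = 0.00036) and -1.1 (SE 0.24, adjusted p = 0.00133), called under the 3 other scalings and without any single array. In females the values were -0.90, -0.24 and -0.24 in IVF, -0.52, -0.60, -0.90 and -0.71 in Purkinje, -0.28, -1.11, -1.68 and -1.03 in CA1 and -0.73, -0.91 and -0.82 in cumulus blastocysts. None of the female differences (-0.22, -0.56 and -0.36) passed the threshold, and the sex differences of the Purkinje (-1.18, adjusted p = 0.383) and CA1 changes (-0.65, adjusted p = 0.482) did not either. The related activator Psme4 was called nowhere. Psmf1, an inhibitor of the core, rose in male Purkinje (0.71), male CA1 (0.80) and Sertoli clones (0.76), where one of its other probes gave -1.05, -1.02 and -0.41. With the mean of all its probes the changes in male Purkinje and CA1 clones were -0.0096 and -0.30, neither called, and without 1 array the male Purkinje call was lost in 4 of 11 fits and the Sertoli call in 1 of 11.

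Psmd4, a ubiquitin receptor of the cap, was lower in 4 of 6 comparisons. It ran from 2.91 to 4.0 with a median of 3.78 in male IVF and was 3.12, 2.65, 2.12 and 2.39 in male Purkinje, 3.23, 2.82, 2.99 and 2.15 in male CA1 and 2.51, 2.39, 2.81 and 3.20 in Sertoli clones, overlapping the IVF range in each. In females it was 3.29, 3.81 and 3.04 in IVF, 1.20, 2.57, 3.17 and 2.49 in CA1, 3.04, 2.36, 2.99 and 2.76 in Purkinje and 2.66, 3.11 and 3.18 in cumulus blastocysts. The falls were -1.03 (adjusted p = 0.00785) in male Purkinje, -0.80 (adjusted p = 0.0329) in male CA1, -0.87 (adjusted p = 0.025) in Sertoli and -1.02 (adjusted p = 0.0488) in female CA1 clones. The male Purkinje call held without any single array and under the 3 other scalings. The male CA1 call was lost without any of 6 of the 11 arrays and the female one without any of 6 of the 7, and the Sertoli call without Sertoli replicate 1 (-0.80) or 2 (-0.76).

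Psmd14, the cap enzyme that removes ubiquitin from substrates, and Psmd7, its partner in the cap, were higher in 4 of 6 comparisons each. Psmd14 ran from 5.88 to 6.79 with a median of 6.06 in male IVF and was 7.31, 7.29, 7.57 and 7.53 in male Purkinje, 6.92, 6.97, 6.55 and 6.32 in male CA1 and 6.83, 6.64, 6.59 and 6.84 in Sertoli clones. It was 6.66, 6.52 and 6.52 in female IVF, 7.15, 7.71, 7.87 and 7.62 in female Purkinje, 6.83, 6.87, 6.68 and 6.45 in female CA1 and 6.92, 6.56 and 6.72 in cumulus blastocysts. Both Purkinje groups lay above every IVF and CA1 blastocyst of their sex. Against IVF the change was 1.20 (SE 0.17, adjusted p = 1.16e-05) in male and 1.02 (SE 0.20, adjusted p = 0.00102) in female Purkinje clones. Male CA1 (0.46) and Sertoli clones (0.50) rose less, and each of those calls was lost in 7 of 11 fits that left out 1 array and under the 3 other scalings. Under quantile normalization the Purkinje changes were 0.67 in males, still called, and 0.40 in females, not called. Normexp left neither called (0.67 and 0.50).

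Psmd7 ran from 5.06 to 5.74 with a median of 5.49 in male IVF and was 6.28, 6.19, 6.28 and 6.32 in male Purkinje, 6.42, 6.12, 6.08 and 5.72 in male CA1 and 6.21, 5.99, 6.21 and 6.39 in Sertoli clones. It was 5.87, 5.83 and 5.52 in female IVF, 6.25, 6.66, 6.57 and 6.40 in female Purkinje, 6.28, 6.26, 5.60 and 6.19 in female CA1 and 5.99, 6.18 and 6.07 in cumulus blastocysts. Purkinje, Sertoli and cumulus clones lay above the IVF range of their sex, though the cumulus difference was not called. The rises were 0.81 (adjusted p = 0.000322) in male Purkinje, 0.63 (adjusted p = 0.00269) in male CA1, 0.74 (adjusted p = 0.000833) in Sertoli and 0.73 (adjusted p = 0.00687) in female Purkinje clones. They belong to the brightest of 3 probes: in Sertoli clones the other probes gave -1.33 and 0.063, and the mean of all probes -0.18, against IVF. Under quantile normalization the Purkinje rises were 0.34 in males and 0.16 in females, neither called.

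Of the 6 ATPases of the cap, Psmc3 fell in male CA1 (-0.93), Sertoli (-1.03) and female CA1 clones (-1.12), in each under the 3 other scalings too. Psmc5 rose in male CA1 clones (0.85) and in male (0.49) and female Purkinje clones (0.73), where normexp turned the direction (-0.22 and -0.029), and Psmc2 in both Purkinje groups (0.48 and 0.72). Psmc1, Psmc4 and Psmc6 were called against IVF nowhere. For the counts that follow, the shares of all genes called are those given above for each comparison. Of the 11 other cap subunits, 4 rose and 1 fell in male Purkinje and in male CA1 clones, 2 rose and 1 fell in Sertoli clones, 4 rose in female Purkinje clones, and 2 fell in female CA1 clones. Besides Psmd4, Psmd7 and Psmd14, those called were Psmd11 and Psmd12 in both Purkinje groups (0.89 and 0.75 in males, 1.64 and 0.94 in females), Psmd12 and Psmd3 in male CA1 clones (0.38 and 0.70), and Psmd13, lower in female CA1 clones (-1.14). Fits that left out 1 array lost the call of Psmd12 in male CA1 clones in 9 of 11, of Psmc2 and Psmc5 in male Purkinje clones in 7 and 5 of 11, of Psmc2 and Psmc5 in female Purkinje clones in 3 and 2 of 7, of Psmc3 and Psmd13 in female CA1 clones in 3 of 7 each, and of Psmc3 and Psmd3 in male CA1 and Psmd11 in male Purkinje clones in 1 of 11 each. With the mean of all probes Psmd12 was -0.22 in male CA1 clones.

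Purkinje and CA1 clones of the present array set were also compared directly. In males 11 of the 42 genes (26.2%) differed, 7 higher and 4 lower in Purkinje clones, where 18.4% of all genes were called (10.9% higher and 7.54% lower). The highest were Psma1 (0.92) and Psmc2 (0.90), and the 4 lower were Psma8, Psmb9, Psmb10 and Psme1. In females 14 (33.3%) differed, all higher in Purkinje clones, where 11% of all genes were called (6.19% higher and 4.82% lower). Psmb7 (1.58) and Psma3 (1.43) led, and the lowest differences, of Psma8 (-1.84) and Psmb9 (-1.39), missed the threshold. The female count was 7 without Purkinje replicate 3 and 6 without CA1 replicate 4. Male CA1 clones differed from Sertoli clones in 2 genes (4.76%), Psmb7 and Psmc5 (0.59), against 11.7% of all genes (5.46% higher and 6.25% lower). The largest other differences were 0.84 for Psmb6, 0.82 for Psmb9, 0.72 for Psmb10 and 0.70 for Psme1. That count fell to 0 without Sertoli replicate 3 or male CA1 replicate 1, 3 or 4, and to 1 without Sertoli replicate 2 or male CA1 replicate 2.

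Trophectoderm markers were read beside the rises in Purkinje clones. All 6 (Cdx2, Eomes, Gata3, Tfap2c, Krt8 and Krt18) differed from IVF by more than 0 in both Purkinje groups, with medians of 0.38 in males, where Tfap2c was called, and 0.62 in females, where Cdx2 was called. Against CA1 clones their medians were 0.65 in males, with 3 of 6 called, and 0.70 in females, with 1 called. Their summed level was 934.1 to 1464 times the 75th percentile in male Purkinje clones, 742.6 to 899.9 in male CA1 clones and 813.2 to 1267 in male IVF blastocysts, and in females 987 to 1239, 664.6 to 850.1 and 757.1 to 918.9. Under quantile normalization the differences of Krt8 and Krt18 from IVF were below 0 in both sexes. The 5 inner cell mass markers had medians of -0.53 in male and -0.32 in female Purkinje clones against IVF, with Tdgf1 called lower in each. Their part in the proteasome changes was not tested.

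The rises in Purkinje clones depended on the scaling. The median change of all genes moved with it, from 0.081 to -0.33 in female and from 0.069 to -0.14 in male Purkinje clones under array median scaling, and to 0.28 in both under normexp. With quantile normalization 3 genes were higher and 7 lower in male Purkinje clones against IVF, with the array median 2 and 7, and with normexp 1 and 8, in place of 12 and 6. In female Purkinje clones the splits were 2 and 4, 1 and 6, and 1 and 2, in place of 13 and 3. For male Purkinje against CA1 clones they were 1 and 7, 2 and 4, and 0 and 9, in place of 7 and 4, and for female Purkinje against CA1 clones 6 and 0, 1 and 3, and 1 and 0, in place of 14 and 0. Of the calls against IVF, 6 of 18 in male Purkinje clones kept call and direction in all 3 (Psmb7 higher, and Psmb2, Psmd4, Psmd10, Psme1 and Psme3 lower), and 2 of 16 in female ones (Psmb2 and Psmd9, lower). When the 5 dimmest Purkinje arrays (75th percentile under 500) were left out, which leaves 2 male clones and 1 female clone, taken to vary like the other groups, the counts were 9 in male Purkinje clones, 0 in female ones, 3 for male Purkinje against CA1 and 0 for female Purkinje against CA1. A count from 1 clone does not show whether the female changes rest on the dim arrays.

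**Figure D4:**
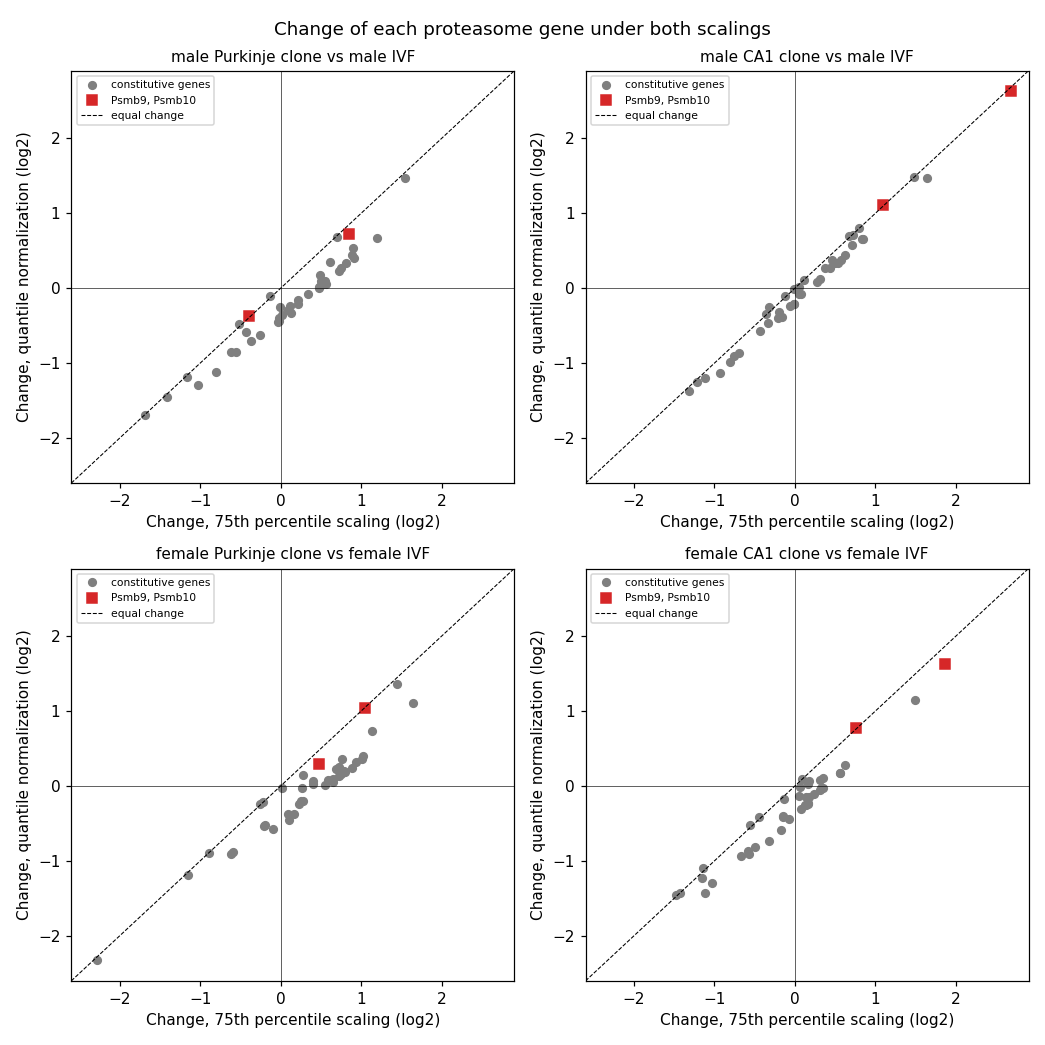
Change of each of the 42 proteasome genes (1 point each) under 75th percentile scaling (x) and quantile normalization (y), both in log2 units, for 4 comparisons of clones with IVF, with a dashed line of equal change. In both Purkinje panels most grey points with a rise lie below the line, and in male CA1 clones the red squares of Psmb9 and Psmb10 lie on or close to it.

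In male CA1 clones 9 of 19 kept call and direction under all 3 other scalings: Psmb7, Psmb9, Psmb10 and Psme2 higher, and Psma3, Psmb2, Psmc3, Psmd10 and Psme3 lower. In Sertoli clones 4 of 9 did (Psmb9 higher, and Psmc3, Psmd10 and Psme3 lower), and in female CA1 clones 4 of 7 (Psmb9 higher, and Psmc3, Psmd9 and Psmd10 lower). Under quantile normalization the split in male CA1 clones was 10 higher and 9 lower, in place of 12 and 7, and under array median scaling 5 and 10. In Sertoli clones it was 3 and 5 under quantile normalization, 3 and 4 under array median scaling and 2 and 3 under normexp, in place of 5 and 4. For the direct comparisons 3 of 11 calls were kept in males (Psmb9, Psmb10 and Psme1, all lower in Purkinje clones) and 1 of 14 in females (Psmb7).

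**Figure D5:**
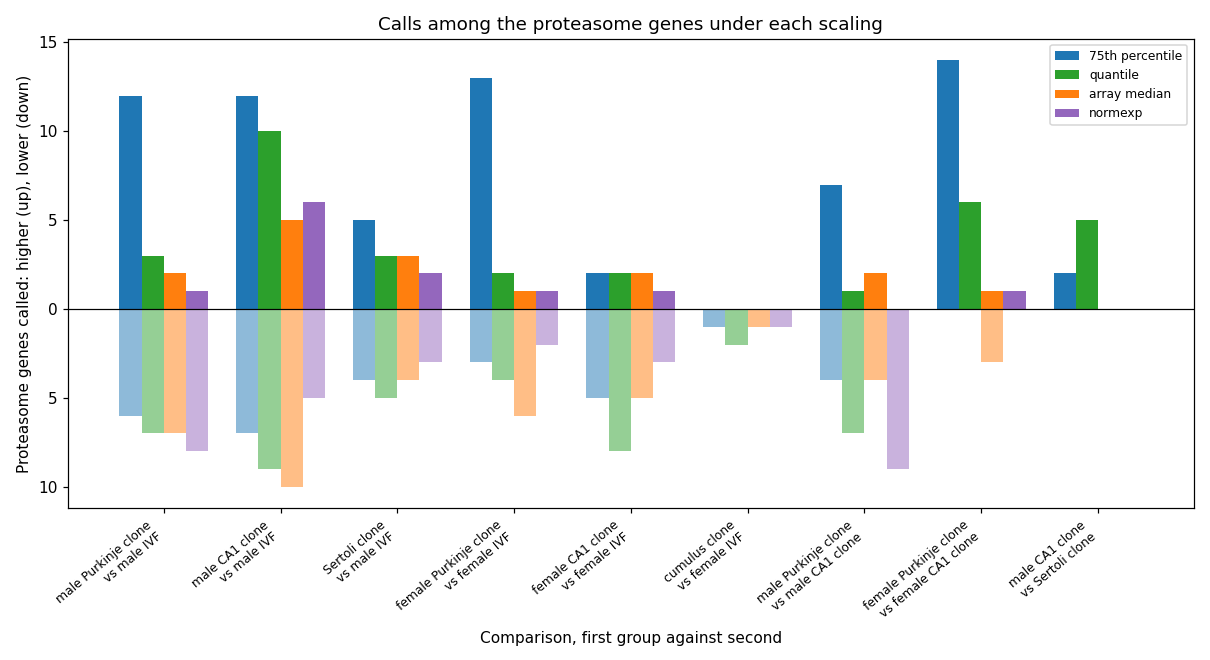
Number of the 42 proteasome genes called higher (bars up) and lower (pale bars down) in 9 comparisons under 4 settings (75th percentile scaling, quantile normalization, array median scaling and normexp background correction). The blue upward bars of the Purkinje comparisons (12, 13, 7 and 14) are taller than those of the other settings.

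Genes that work around the proteasome were read from lists. The counts stand beside shares of all genes called higher and lower of 18.3% and 10.3% in male Purkinje, 17.6% and 13.3% in male CA1, 14.9% and 10.7% in Sertoli, 13.1% and 6.66% in female Purkinje, 8.39% and 4.9% in female CA1 and 1.95% and 3.34% in cumulus clones. The directions given here and for antigen processing held under the 3 other scalings for each gene named. Of 4 core assembly chaperones tested outside the name rule, 3 rose in male Purkinje, 2 in male CA1 and 1 each in Sertoli, female Purkinje and female CA1 clones. Psmg3 was the one that rose in all 5, by 1.41 (adjusted p = 0.000123), 1.34 (adjusted p = 0.00013), 1.01 (adjusted p = 0.00326), 1.78 (adjusted p = 0.000184) and 1.72 (adjusted p = 0.000366), and it differed by 0.082 (adjusted p = 0.991) in cumulus clones. The list for transcription and its control is mixed. It holds the inhibitor Keap1, and Zfand5, Zfand2a and Akirin2 beside transcription factors. Of its 11 genes, 6 rose and 2 fell in male Purkinje, 5 rose and 3 fell in male CA1, 6 rose and 1 fell in Sertoli, 4 rose and 2 fell in female Purkinje and 4 rose in female CA1 clones. Their median change was 0.88, 0.0075, 0.43, 0.59 and 0.50 in these groups, against 0.069, 0.01, 0.0036, 0.081 and 0.07 for all genes. Ddi2, the protease that activates Nfe2l1, rose in those 5 groups (1.30, 1.24, 1.71, 1.25 and 1.60). Nfe2l2, which shares the antioxidant response element with it, rose in the 3 male groups (1.35, 1.17 and 1.06), and its inhibitor Keap1 fell there (-1.72, -1.09 and -1.29) and in female Purkinje clones (-1.37). Nfe2l1 itself rose in female CA1 clones alone among the 9 comparisons (0.80 (adjusted p = 0.0431)).

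Uba1, the X-linked enzyme that activates ubiquitin, fell in the same 5 groups (-0.86, -1.66, -0.84, -0.84 and -1.07). Uba6, the other activating enzyme, fell in male CA1 clones (-1.26). Rps27a, a source of ubiquitin fused to a ribosomal protein, rose in both Purkinje groups (1.13 and 1.19). Of 9 shuttle and unfoldase genes, 3 rose and 1 fell in male Purkinje, 2 rose and 2 fell in male CA1, 2 rose in Sertoli, 2 rose and 1 fell in female Purkinje, 1 fell in female CA1 and 1 rose in cumulus clones. Vcp, the unfoldase that hands substrates to the proteasome, rose in male Purkinje (1.03), male CA1 (0.92) and female Purkinje clones (0.94). Of 5 partners bound to the cap, Usp14 rose in male Purkinje (1.17) and Sem1 in female Purkinje clones (0.81), and Adrm1 fell in Sertoli clones (-0.69).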

How the data were processed

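RNA of 33 single blastocysts had been amplified and hybridised to 1-colour Agilent arrays. The deposited scanner files hold an intensity for each probe, background-subtracted by Agilent Feature Extraction, which the submitters' processing notes give as version 10.5.1; per the file headers it was 10.5.1.1 for 20 arrays and 9.5.3.1 for 13. The authors' deposited table of log2 values, used as an alternative, was matched to these intensities: log2, with values under 1 set to 1, less the 75th percentile of each array, then with the median over the arrays of a sex taken off each probe, to a median absolute difference of 0.00668 in males and 0.00746 in females.

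Intensities were divided by the 75th percentile of the array. Values under the floor of 0.0912 of it (20.06% of values) were set to the floor, and log2 was taken. Probes well above background on more than 50% of the arrays of a group were kept, and the brightest stood for its gene. A kept probe also had at least 3 arrays above the floor and at least 2 values in every group. One model of 8 groups was fitted in limma 3.58.1 (R 4.3.3; 25 residual degrees of freedom), with Benjamini-Hochberg adjustment over 15860 genes. On data simulated for male CA1 clones against male IVF, with 15860 genes, it called 19 and 23 of 50 genes raised and lowered by 1 on the log2 scale and 48 and 39 of 50 by 2, and 9 unchanged genes. The number of arrays limits the precision.

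The members, the lists and the tests were chosen with earlier results of these data known. Values per array are given for the immune subunits and their constitutive counterparts, Psmd10, Psme1, Psme2 and the 5 other genes called most often in 1 direction; ubiquitin, shuttle, transcription and antigen processing lists are given by counts. Some genes of these lists are not reported here, although the counts of a list include them. Alternatives were quantile normalization, array median scaling, normexp (offset 50, on the median spot signal, because the mean is not in all files), a lower floor, no dim filter, the mean of all probes, the authors' table, a fit of the compared groups alone, slide as a random block, a replicate block, leaving out each array, and leaving out 5 Purkinje arrays with a 75th percentile under 500.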

Additional observations from a re-analysis of the deposited data

Results flagged for a closer look

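In 12 of 258 series of values within a group of 4 or more blastocysts, 1 array stood further from the others than Dixon's test allows at 95%, where chance gives about 5%. Psmb6 read 5.53 in male Purkinje clone replicate 1, and the nearest of the other 3 read 5.03. Psmd7 read 5.60 in female CA1 clone replicate 3, and the nearest 6.19. Psma8 read -0.57 in female Purkinje clone replicate 4, where the nearest read -3.20. Psmb1 read 5.35 in male CA1 clone replicate 1 (nearest 4.93) and 5.56 in female Purkinje clone replicate 1 (nearest 5.05). Psmb2 read 1.96 in male CA1 clone replicate 4 (nearest 2.44), Psmc1 6.16 in female CA1 clone replicate 3 (nearest 5.54) and Psmc3 3.04 in female Purkinje clone replicate 2 (nearest 3.52). Psmd2 read 7.40 in Sertoli clone replicate 4 (nearest 6.87), Psmd3 6.66 in male Purkinje clone replicate 1 (nearest 5.90) and Psmf1 -0.92 in male IVF replicate 6 (nearest 0.055). The mean of the 40 constitutive genes was 3.87 in female CA1 clone replicate 4, where the nearest was 4.13.

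The change of Psmb7 in CA1 clones against IVF differed between the sexes by 1.61 in the limma interaction term. The call was lost in 13 of 18 fits that left out 1 array.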

How the results depend on the processing

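Of 9492 values of the 42 genes under an alternative, 8881 stayed on their side of the threshold, 500 lost a call and 104 gained one. Another 7 turned direction with a call in the main fit or the alternative. Changes called in neither could change sign and still count among the 8881. Psmb5 is an example: its means in male Purkinje clones and male IVF were 5.57 and 5.48, and 5.39 and 5.69 under quantile normalization. The 7 that turned with a call were, with the mean of all probes, Psmd7 in Sertoli clones (-0.18), Psmf1 in male Purkinje (-0.0096) and male CA1 clones (-0.30) and Psmd12 in male CA1 clones (-0.22), with normexp Psmc5 in male (-0.22) and female Purkinje clones (-0.029), and with quantile normalization Psme4 in female Purkinje clones (-0.45, called there), each against IVF. The median change turned to -0.18 (quantile), -0.17 (array median) and -0.21 (normexp) in male Purkinje clones, and under array median scaling to -0.17 in female Purkinje clones, -0.12 for female Purkinje against CA1 clones and 0.017 for the Purkinje sex difference, from -0.25. The all-gene median under array median scaling was -0.14 in male and -0.33 in female Purkinje clones. For female Purkinje against CA1 clones it was -0.38. The causes were not tested.

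Counts of genes called moved by over 1.5 times as follows. Quantile normalization gave 10 for male and 6 for female Purkinje clones, 2 for cumulus clones, 6 for female Purkinje against CA1 and 5 for male CA1 against Sertoli clones. Array median scaling gave 9 and 7 for male and female Purkinje clones, 6 and 4 for male and female Purkinje against CA1, 0 for male CA1 against Sertoli and 0 for the CA1 sex difference. Normexp gave 9 for male Purkinje, 11 for male CA1, 5 for Sertoli, 3 for female Purkinje and 4 for female CA1 clones, 1 for female Purkinje against CA1, and 0 for male CA1 against Sertoli and the CA1 sex difference. The last 2 were also 0 with a lower floor, without the dim filter and with slide as a random block. The CA1 against Sertoli count was 0 with the mean of all probes and with the authors' table. The cumulus count was 0 without the dim filter, with the mean of all probes, with slide as a random block and in the fit of the compared groups alone, which gave 10 for female Purkinje and 0 for female CA1 clones and 4 for female Purkinje against CA1. Without the low-signal Purkinje arrays, which leaves 2 male clones and 1 female clone, the counts were 9 and 0 for male and female Purkinje clones and 3 and 0 against CA1. Without 1 array the counts ran from 13 to 19 for male Purkinje, 13 to 20 for male CA1, 6 to 10 for Sertoli, 9 to 17 for female Purkinje, 2 to 8 for female CA1 and 0 to 3 for cumulus clones, 10 to 14 and 6 to 15 for male and female Purkinje against CA1, 0 to 3 for CA1 against Sertoli, 0 to 2 for the CA1 and 0 to 0 for the Purkinje sex difference.

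The labels do not say whether samples with the same replicate number were paired. Of 33 same-numbered pairs 6 correlated over 0.1, with a range from -0.21 to 0.24. Such correlations cannot show whether paired embryos shared a session. With a replicate block the counts were 5 for Sertoli and 0 for cumulus clones, 0 for the CA1 sex difference and 3 for male CA1 against Sertoli clones, with neither of the 2 calls without the block among them, and within 1.5 times elsewhere. Low signal limits Psmb8, on the floor throughout, Psma8, Psmb11 and Tap1.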
